A study of Sus scrofa with 22 samples.

Results

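CD79B, CD40, SPIB and JCHAIN were followed as markers of the B cell lineage in blood mononuclear cells of mini pigs. The array carries 6 probe sets annotated to exactly 1 of these 4 symbols, out of 23999 probe sets, and 10069 of those have a single symbol and stand for 6765 genes. CD79B has the probe set Ssc_12584_1_A1_at, SPIB has Ssc_19453_1_S1_at and JCHAIN has Ssc_16506_1_A1_at. CD40 has 3, namely Ssc_5915_1_S1_at, Ssc_11752_1_A1_s_at and Ssc_26880_1_A1_s_at, of which Ssc_5915_1_S1_at was the brightest. All 6 were above the filter on low values on all 22 arrays and were tested.

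The study asked how a diet rich in beef tallow, with or without resveratrol, a plant polyphenol, changes gene expression in these cells in female and male pigs. It used 22 arrays from 20 pigs of the Mini Pig breed, and no genetic alteration is given for any of them. At time 0 the control group had 10 arrays, 5 from females and 5 from males. At 9 months there were 3 groups of 4 arrays, each from 2 females and 2 males. The control group was fed normal chow with 5% beef tallow, the high-fat group chow with 20% beef tallow, and the resveratrol group the 20% tallow chow plus 8 mg of resveratrol per kg body weight per day. Pigs 8 (female) and 25 (male) of the control group were measured at both times, and every other array came from a separate pig. The age at the start is not given in the sources used here, so "9 months" is the time on the diet.

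B cells carry an antigen receptor made of a membrane antibody and a signalling pair, of which CD79B is the beta chain. CD40 is a receptor of the tumour necrosis factor receptor family through which T cells carrying CD40 ligand activate B cells, and it is also found on monocytes and dendritic cells. SPIB is an ETS family transcription factor of B cells and plasmacytoid dendritic cells. JCHAIN is the joining chain that links antibody units into polymeric IgM and IgA, and it is made mainly by antibody-secreting plasma cells. In a mixed blood sample, fewer cells of a type and less RNA per cell cannot be told apart.

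Values are log2 of the deposited intensity, so a difference of 1 is a doubling, and levels are compared only within a probe set. A difference was called at an adjusted p under 0.05 in limma, with adjustment over 17240 tested probe sets. Pearson correlations between arrays, over all probe sets tested, had a median of 0.971 and a lowest value of 0.941. By the mean log2 intensity of the poly-A spike-in control probes, the arrays of each time were cut at the widest gap into 2 sets. At time 0 these were A (2 arrays, 9.23 and 9.26) and B (8 arrays, 7.69 to 7.96). At 9 months they were C (7 arrays, 8.52 to 9.14) and D (5 arrays, 10.06 to 10.72). The cut was made within each time, so no set could span both, and time and set cannot be told apart. By level alone, set A lay nearer to set C than to set B. The actin 3' less 5' signal, a sign of RNA quality, was 1.42 ± 0.50 (SD, n = 10) at time 0, and 1.95 ± 0.65, 2.36 ± 0.56 and 1.86 ± 0.67 (n = 4 each) in the control, high-fat and resveratrol groups at 9 months. Of 114 other genes on the B lineage lists, 50 were tested. These lists cover pathways as well as markers, and some of their genes are not particular to B cells, such as CD40LG and SPI1. MS4A1, CD79A and PAX5 were not analysed here, so the B cell content of the samples could not be read from them. T cell and monocyte markers were also measured, with 14 of 23 and 15 of 21 listed genes on the array, all of which passed the filter.

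**Figure D1:**
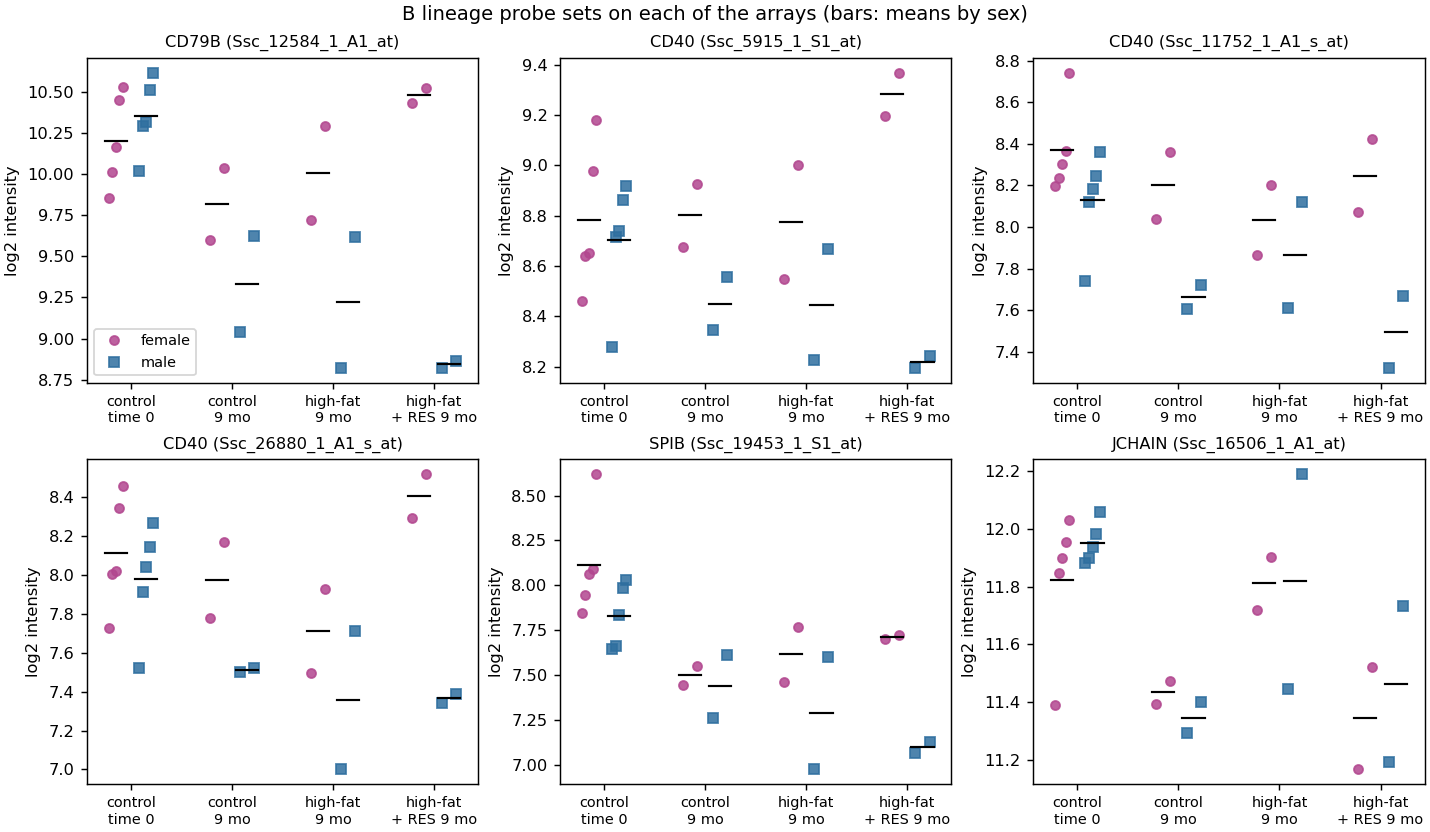
Log2 intensity (vertical axis) of the 6 probe sets on all 22 arrays, by condition (horizontal axis) and sex (circles female, squares male), with black bars for the mean of each sex. CD79B, the CD40 probe sets and SPIB spread widely by sex in the resveratrol group, where CD79B lay at 10.43 and 10.53 in the females and at 8.82 and 8.87 in the males, while JCHAIN did not separate by sex.

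Over 9 months on control chow, CD79B, SPIB and JCHAIN fell, and the 3 CD40 probe sets, though also lower on average, did not pass the test. Of the 6 probe sets, 3 were called, all of them lower at 9 months, where 35.0% of all tested probe sets were called in either direction and 19.1% were called lower. The median difference over the 6 probe sets was -0.41, beside -0.01 over all tested probe sets.

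CD79B at time 0 ranged from 9.86 to 10.62 with a median of 10.31. At 9 months on control chow, the females were at 9.60 and 10.04 and the males at 9.63 and 9.04. The ranges overlapped, because female 8 at 10.04 stood within the time 0 range, while the other 3 arrays lay below all 10 time 0 arrays. The difference was -0.70 (SE 0.25, adjusted p = 0.0365), which is 0.615 times the time 0 level. The adjusted p rose to 0.0577 after quantile normalization and to 0.0855 with the spike-in set as a random block, and leaving out any of 6 single arrays (control males 11, 12, 15 and 24 at time 0, and female 18 or male 25 at 9 months) also ended the call, with differences from -0.67 to -0.59. By sex, CD79B fell by 1.02 (SE 0.23, adjusted p = 0.00569) in males, where 20.8% of probe sets were called, and the value in females was -0.39 (SE 0.23, adjusted p = 0.251), where 24.7% were called. The difference between these changes, 0.63 (SE 0.33), did not pass the test (adjusted p = 0.518). The pigs measured at both times went separate ways, with 0.02 in female 8 and -0.98 in male 25.

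CD40, the receptor for T cell help, was also lower on average over time, without a call. On the brightest probe set, the time 0 arrays ranged from 8.28 to 9.18 with a median of 8.73, and the 9-month controls were at 8.68 and 8.93 (females) and 8.56 and 8.34 (males), all within that range. The differences were -0.12 (SE 0.17, adjusted p = 0.626) for Ssc_5915_1_S1_at, -0.32 (SE 0.14, adjusted p = 0.0827) for Ssc_11752_1_A1_s_at and -0.30 (SE 0.18, adjusted p = 0.192) for Ssc_26880_1_A1_s_at. The 95% confidence interval of the brightest set ran from -0.46 to 0.23. With array weights Ssc_11752_1_A1_s_at alone passed, at -0.38 (adjusted p = 0.0304). In female 8 all 3 probe sets were slightly higher at 9 months, by 0.27, 0.16 and 0.15.

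SPIB, the transcription factor, separated the control arrays by time, though narrowly. Its time 0 values ran from 7.65 to 8.62 with a median of 7.97, and the 9-month controls stood at 7.55 and 7.45 in females and 7.61 and 7.26 in males. Every 9-month control array lay below every time 0 array, with 7.61 and 7.65 as the nearest values. How many of all probe sets separate in this way was not counted, so it is not shown to be particular to SPIB. In this comparison 35.0% of all probe sets were called. Some other 9-month arrays lay within the time 0 range, namely high-fat female 27 (7.77) and resveratrol females 21 (7.72) and 22 (7.70). SPIB fell by 0.50 (SE 0.13, adjusted p = 0.00633), to 0.705 times the time 0 level. The fall was 0.62 (adjusted p = 0.0227) in females and the value was -0.39 (adjusted p = 0.145) in males, and these did not differ by the test (difference -0.22, SE 0.27, adjusted p = 0.829). Pigs 8 and 25 gave -0.50 and -0.39.

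JCHAIN, the marker of antibody secretion, ranged from 11.39 to 12.06 at time 0 with a median of 11.92. At 9 months on control chow it was at 11.47 and 11.39 in females and 11.29 and 11.40 in males. The groups overlapped only through female 10, which at 11.39 was the lowest of the time 0 arrays, with the next at 11.85. JCHAIN fell by 0.50 (SE 0.13, adjusted p = 0.00450), or to 0.709 times the time 0 level. The changes were -0.39 (adjusted p = 0.137) in females and -0.60 (adjusted p = 0.0289) in males, with a difference of 0.21 (SE 0.26, adjusted p = 0.834). The repeated pigs moved by the same amount, -0.50 in each. The SPIB and JCHAIN calls held in all 34 alternative settings tried.

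Other genes of the B lineage lists moved in both directions over the same time. Of the 50 tested, which include genes also made by other cells, 15 were higher and 10 lower at 9 months, with a median of 0.00. Over all probe sets 35.0% were called in either direction. In the CD40 pathway, 6 of 10 genes rose (4 with the pig as a replicate block), among them CD40LG, the ligand of CD40, by 0.97 (SE 0.20, adjusted p = 7.46e-04) and TRAF5, a signalling adaptor of this receptor family, by 0.75 (SE 0.15). FAS, a death receptor, fell by 0.33. Among B cell transcription factors 5 of 8 rose, including IRF8 by 0.77, ID3 by 0.54, FOXP1 by 0.52 and POU2F2 by 0.51, while BCL11A fell by 0.42.

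In B cell receptor signalling, which is the pathway of CD79B, 2 of 11 genes rose and 2 fell, a share near that over all probe sets and so no result about the list. Of its single genes, LYN, a kinase that phosphorylates the receptor's signalling chains, rose by 0.74 (SE 0.11), and the inhibitory Fc receptor FCGR2B rose by 0.49. CD81, a partner of the coreceptor, fell by 0.54 and the exchange factor VAV1 by 0.22. Among surface markers, CD83, an activation marker, rose by 0.77, and CD27, a marker of memory B cells and of T cells, fell by 0.81 (SE 0.16).

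The antibody secretion list had 5 of 17 genes lower and 2 higher, beside the same 35.0% over all probe sets. Those named by the rule were CD38, a surface enzyme abundant on plasma cells, which fell by 0.72 (SE 0.12), and the endoplasmic reticulum proteins SDF2L1, CRELD2, FKBP11 and PRDX4, which fell by 0.51, 0.50, 0.44 and 0.32. The list's median was -0.06.

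Markers of other cells were also called over the same time, and their part in the B lineage result was not tested. Over all tested probe sets 35.0% were called in either direction and 19.1% lower, and no list was tested against these shares. T cell markers were lower in 7 of 14 genes and higher in 0, and the list's mean level per array ran from 10.01 to 10.44 at time 0 and from 9.74 to 9.94 at 9 months. Erythroid markers were lower in 5 of 5 genes, with mean levels of 8.94 to 10.65 at time 0 and 7.84 to 9.36 at 9 months. Monocyte markers were higher in 3 of 15 genes, below the 35.0% over all probe sets and so no result about the list. Their mean levels were 9.45 to 10.16 and 9.82 to 10.29. NK and cytotoxic markers were lower in 3 of 6 genes and higher in 0, with mean levels of 9.96 to 10.40 and 9.60 to 10.03. Markers of plasmacytoid dendritic cells, which also express SPIB, were lower in 2 of 6 genes and higher in 1, with mean levels of 7.36 to 8.08 and 7.61 to 7.81. Cell cycle genes were lower in 11 of 16 and higher in 1, with mean levels of 8.44 to 9.26 and 8.18 to 8.55.

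**Figure D2:**
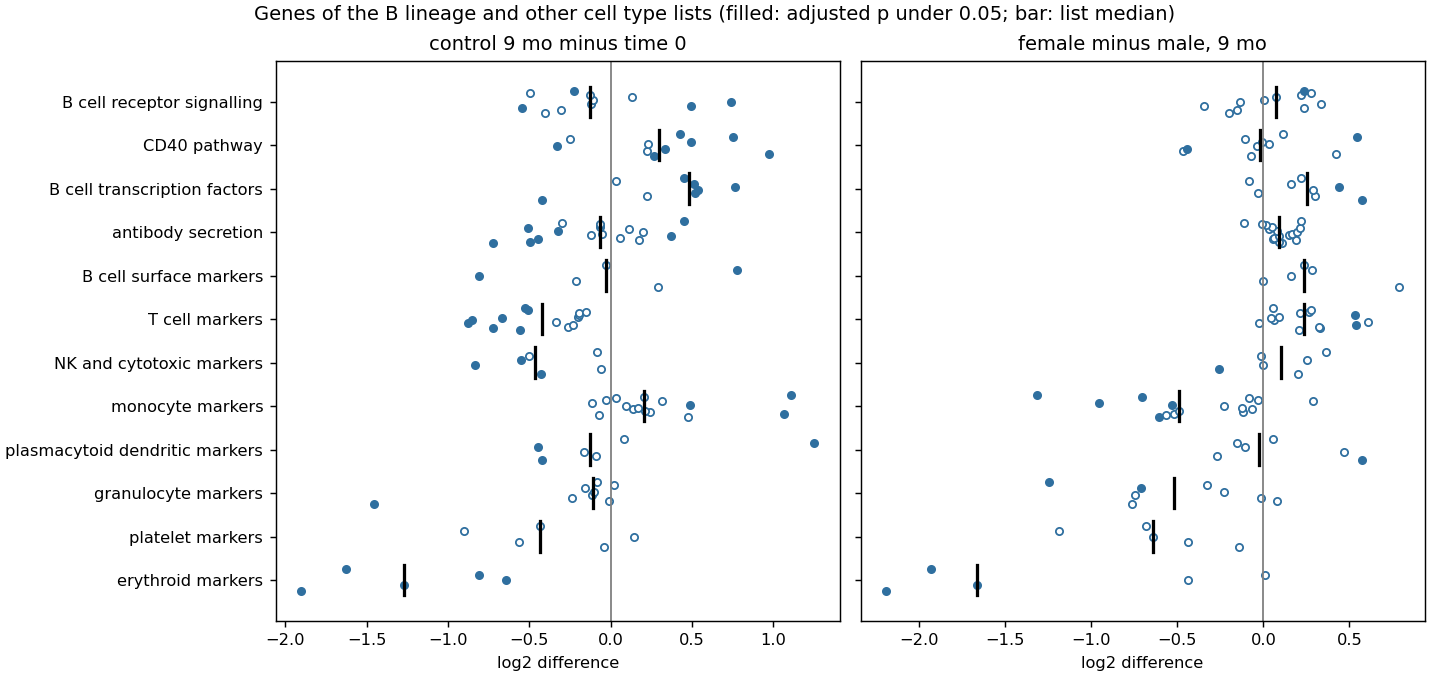
Log2 differences (horizontal axes) of the tested genes of each list (vertical axis), without the 4 members, for control chow at 9 months less time 0 (left) and female less male at 9 months (right). Filled points passed at an adjusted p under 0.05 and bars mark list medians, which over time were -0.42 for T cell and -1.27 for erythroid markers, and between the sexes -0.49 for monocyte and -1.66 for erythroid markers.

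The question of whether fat intake changes gene expression was addressed by high-fat against control chow at 9 months. None of the 6 probe sets was called (0 of 6), and 0% of all probe sets were called by limma in this comparison. At an unadjusted p under 0.05 there was 1 of 6 among the members and 1562 of 17240 in all. That member was JCHAIN.

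JCHAIN in the high-fat group was at 11.72 and 11.90 in females and at 11.45 and 12.19 in males. The controls lay between 11.29 and 11.47, so 3 of the 4 high-fat arrays were above every control and male 23, at 11.45, was not. The difference was 0.42 (SE 0.15), and it did not pass (adjusted p = 0.383, and 0.0711 to 0.797 over the alternatives). It was 0.38 in females and 0.47 in males. Within spike-in set C the only high-fat array was 0.06 above the mean of 3 controls, and within set D the 3 high-fat arrays averaged 0.54 above the only control.

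CD79B in the high-fat group was at 10.29 and 9.72 in females and 8.82 and 9.62 in males, on both sides of the control range of 9.04 to 10.04. The difference was 0.04 (SE 0.30), with a 95% confidence interval from -0.59 to 0.67. SPIB stood at 7.77, 7.46, 6.98 and 7.60 in females 27 and 30 and males 23 and 26, a difference of -0.02 (interval -0.35 to 0.32). The CD40 probe sets differed by -0.02, 0.02 and -0.21. With 4 arrays per group, changes up to the ends of these intervals could not be told from no change.

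The same held for the B lineage lists, where 0 of 50 genes were called. The smallest p-values belonged to SPI1, a transcription factor of B and myeloid cells, at -0.68 (adjusted p = 0.326), FAS at 0.45 (adjusted p = 0.326) and LYN at -0.37 (adjusted p = 0.360).

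Resveratrol on top of the high-fat chow was compared with high-fat chow alone. No member was called (0 of 6, against 0% of all probe sets), with 1 of 6 members and 1143 of 17240 probe sets at an unadjusted p under 0.05 in limma. JCHAIN was again that member. Its values with resveratrol were 11.17 and 11.52 in females and 11.73 and 11.19 in males, overlapping the high-fat range from 11.45. Their mean, 11.40, was close to the 11.39 of the control group, but no array lay inside the control range of 11.29 to 11.47. The difference from the high-fat group was -0.41 (SE 0.15, adjusted p = 0.728). This comparison shares the high-fat arrays with the one before, so opposite signs of the JCHAIN values are not independent of each other.

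For CD79B the resveratrol group averaged 9.66 ± 0.94 (SD, n = 4) and the high-fat group 9.61 ± 0.60, a difference of 0.05 (SE 0.30). For CD40 the differences were 0.14, -0.08 and 0.35, and for SPIB -0.05, none of them called. Against the control group, the resveratrol group also had 0 of 6 members called and 0% of all probe sets, with 0 members and 664 probe sets at an unadjusted p under 0.05. The members' differences there lay between -0.06 and 0.14. In the 9-month groups the order of the JCHAIN means was 11.81 with high-fat chow, 11.40 with resveratrol and 11.39 with control chow, and that of CD79B was 9.66 with resveratrol, 9.61 with high-fat chow and 9.57 with control chow. No neighbours in either order passed the test.

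Among the B lineage lists 0 of 50 genes passed in either resveratrol comparison. Against high-fat chow, TANK, an adaptor that binds TRAF proteins, had the smallest p at -0.37 (adjusted p = 0.757), followed by SEC61B, a subunit of the endoplasmic reticulum channel, at -0.16 (adjusted p = 0.781) and NFKBIA, the inhibitor of NF-kB, at -0.22 (adjusted p = 0.800). Against control chow they were LYN at -0.38, SPI1 at -0.45 and FAS at 0.29.

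**Figure D3:**
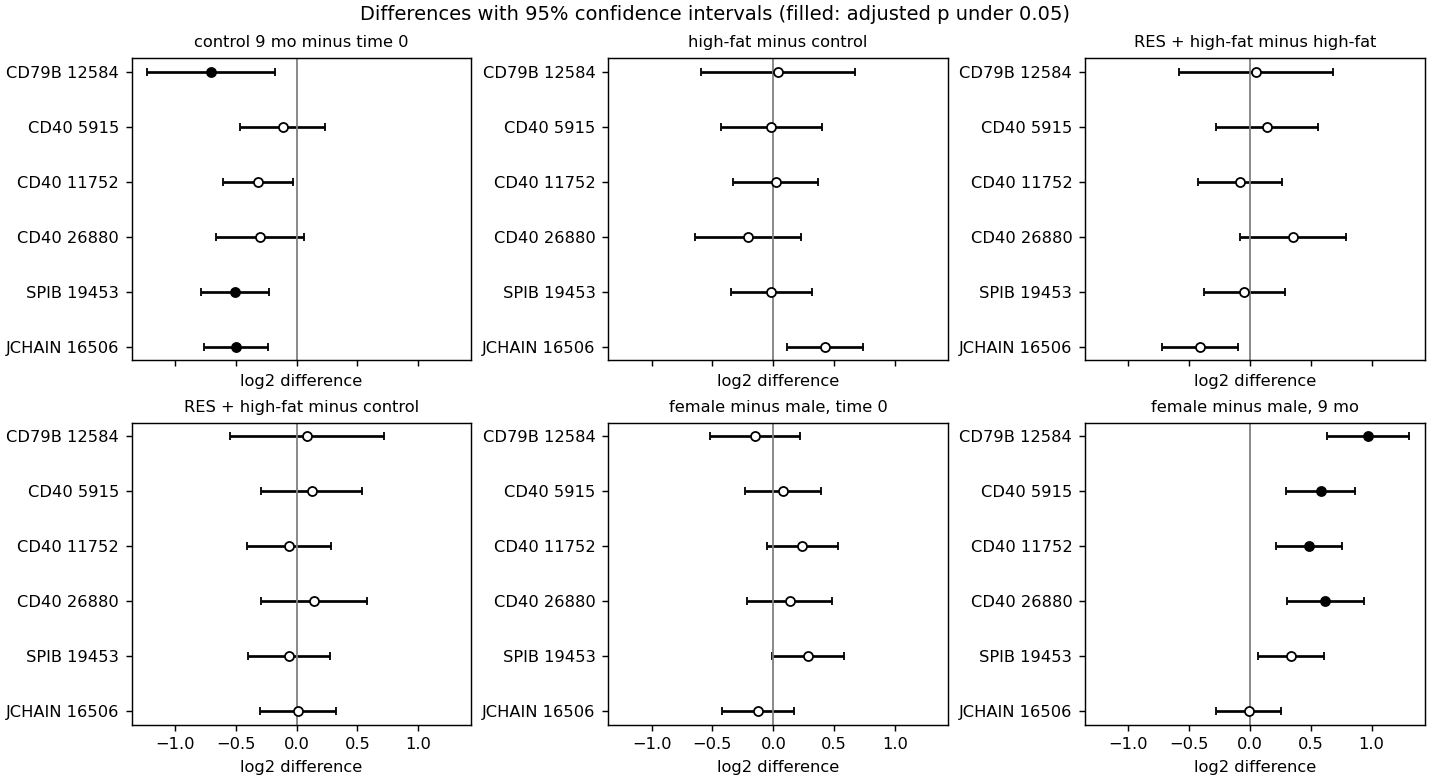
Log2 differences (horizontal axes) with 95% confidence intervals for each of the 6 probe sets (vertical axes) in 6 comparisons, with filled points where the adjusted p was under 0.05. Filled points appear for CD79B, SPIB and JCHAIN over time and for CD79B and the 3 CD40 probe sets between the sexes at 9 months, and in no diet comparison.

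At time 0 the sexes did not separate on any member. None of the 6 was called (0 of 6 members and also 0 at an unadjusted p under 0.05), where limma called 1.07% of all probe sets. CD79B ran from 9.86 to 10.53 in females with a median of 10.16, and from 10.02 to 10.62 in males with a median of 10.32. The female less male differences were -0.15 (SE 0.18) for CD79B, 0.08, 0.24 and 0.13 for the CD40 probe sets, 0.28 (SE 0.14, adjusted p = 0.332) for SPIB and -0.13 (SE 0.14) for JCHAIN. The ranges of females and males overlapped on all 6. Among the other genes of the B lineage lists 0 of 50 passed. BLNK, the adaptor downstream of CD79B, came closest at 0.68 (adjusted p = 0.0505). It was followed by CD40LG at -0.53 (adjusted p = 0.0807) and NFATC1, a calcium-responsive transcription factor, at -0.35 (adjusted p = 0.0919).

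At 9 months, over the 3 diets, CD79B and CD40 were higher in females than in males. Of the 6 probe sets 4 were called, all of them higher in females, beside 6.01% of all probe sets called in either direction and 3.07% called higher. The 4 called probe sets stand for 2 genes, since 3 of them measure CD40. The calls rest on the resveratrol group. Over the 8 arrays of the control and high-fat groups alone, 0 of the 6 passed, where 0.122% of all probe sets were called.

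CD79B in the 6 females ranged from 9.60 to 10.53 with a median of 10.16, and in the 6 males from 8.82 to 9.63 with a median of 8.95. The groups met only at their edges, where female 18 (9.60) lay below males 16 (9.63) and 26 (9.62). The difference was 0.97 (SE 0.16, adjusted p = 0.00349), or 1.96-fold. It was 0.99 within spike-in set C (3 females, 4 males) and 0.85 within set D (3 females, 2 males). Without the resveratrol group it was 0.64 (SE 0.20, adjusted p = 0.523), without the high-fat group 1.06 (adjusted p = 0.0112) and without the control group 1.21 (adjusted p = 0.00160).

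CD40 followed CD79B. On the brightest probe set the females ran from 8.55 to 9.37 with a median of 8.97 and the males from 8.20 to 8.67 with a median of 8.29, overlapping through female 30 and males 16 and 26. The differences were 0.58 (SE 0.13, adjusted p = 0.0175), 0.49 (SE 0.13, adjusted p = 0.0337) and 0.62 (SE 0.15, adjusted p = 0.0230) for Ssc_5915_1_S1_at, Ssc_11752_1_A1_s_at and Ssc_26880_1_A1_s_at. Within set C they were 0.63, 0.58 and 0.77, and within set D 0.47, 0.30 and 0.36. Without the resveratrol group they were 0.34, 0.35 and 0.41 (adjusted p = 0.773, 0.737 and 0.740). The brightest probe set also lost its call without female 8, male 25, female 27, male 23 or female 21, with differences from 0.51 to 0.55 (adjusted p up to 0.0759). Ssc_11752_1_A1_s_at lost it without any of those 5 or male 4 (adjusted p up to 0.128), and Ssc_26880_1_A1_s_at without any of those 5, male 4 or male 5 (adjusted p up to 0.0961).

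SPIB in females ran from 7.45 to 7.77 with a median of 7.63, and in males from 6.98 to 7.61 with a median of 7.19. Its difference of 0.33 (SE 0.13) did not pass (adjusted p = 0.135). JCHAIN ran from 11.17 to 11.90 in females and from 11.19 to 12.19 in males, with a difference of -0.01 (SE 0.13, adjusted p = 0.971). The 95% confidence interval of the JCHAIN difference was -0.28 to 0.26, and the lower bound for CD79B was 0.63. The genes were not tested against each other, and the CD79B call rests on the resveratrol group.

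Within single groups, the sex differences were widest in the resveratrol group. In it 9.98% of all probe sets were called between the sexes, beside 0.0928% in the control group and 0.0928% in the high-fat group, and 4 of the 6 members passed. CD79B stood at 10.53 and 10.43 in females 21 and 22 and at 8.82 and 8.87 in males 4 and 5, a difference of 1.63 (SE 0.28, adjusted p = 0.00288). Both females lay above, and both males below, every control array at 9 months. The CD40 probe sets differed by 1.06 (adjusted p = 0.0102), 0.75 (adjusted p = 0.0399) and 1.04 (adjusted p = 0.0191). SPIB differed by 0.61 (adjusted p = 0.0894) and JCHAIN by -0.12.

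Mean levels of several other lists and the actin signal also did not overlap between the sexes in the resveratrol group. With 2 arrays per sex, values can fall apart in this way by chance, and these levels were not tested. Their part in the differences of the members was not tested either. The mean level of monocyte markers was 9.38 and 9.58 in the females and 10.16 and 10.21 in the males, and that of granulocyte markers 5.76 and 5.87 against 6.73 and 6.74. Erythroid markers were at 8.14 and 8.28 against 9.71 and 9.79, and T cell markers at 10.06 and 10.11 against 9.61 and 9.62. Cell cycle genes were at 8.67 and 8.85 in the females against 8.23 and 8.31 in the males. NK, plasmacytoid dendritic and platelet markers overlapped between the sexes. The actin 3' less 5' signal was 1.29 and 1.38 in the females and 2.04 and 2.72 in the males.

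None of the 6 members passed within the control or the high-fat group, where CD79B differed by 0.49 (SE 0.28, adjusted p = 0.735) and 0.79 (SE 0.28, adjusted p = 0.337). The sex difference of CD79B in the resveratrol group exceeded that in the control group by 1.15 (SE 0.40), which did not pass (adjusted p = 0.158). The effect of resveratrol against high-fat chow was 0.47 in females and -0.38 in males for CD79B, and 0.51 and -0.23 for the brightest CD40 probe set. The sex difference in this effect, 0.85 (SE 0.40) for CD79B and 0.73 (SE 0.33) for CD40, did not pass (adjusted p = 0.842 for both), and 0 of 6 members did, where limma called 0.0116% of all probe sets. At an unadjusted p under 0.05 these were 2 of 6 members and 1009 probe sets. For the effect of high-fat chow the sexes differed on 0 of 6 members, with 0 at an unadjusted p under 0.05 and 2015 in all, and 0.00580% of all probe sets called.

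**Figure D4:**
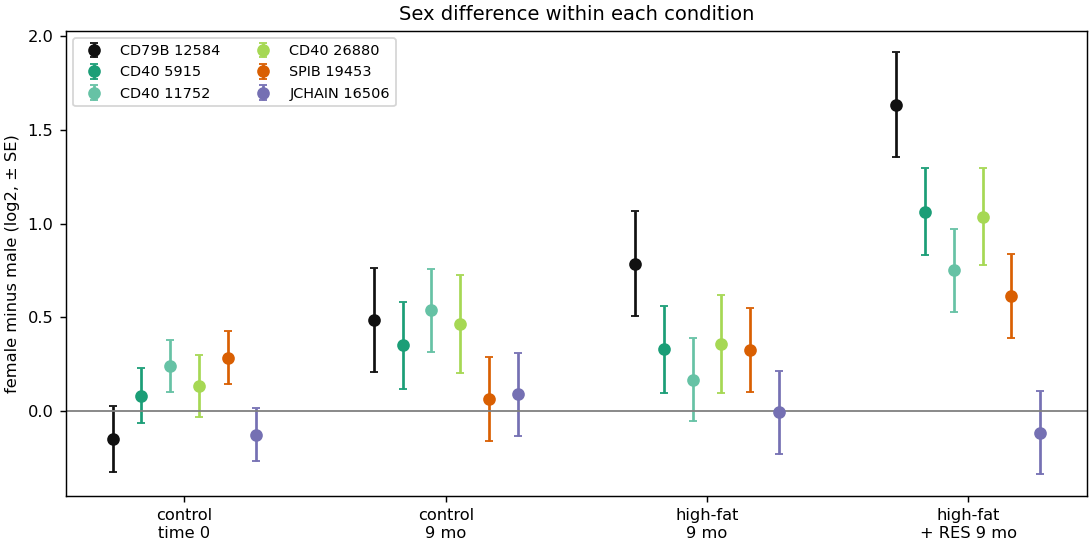
Female less male log2 difference (vertical axis, with the standard error of the fit) for each of the 6 probe sets in the 4 conditions (horizontal axis). CD79B went from -0.15 at time 0 to 0.49, 0.79 and 1.63 in the control, high-fat and resveratrol groups at 9 months, while JCHAIN stayed between -0.13 and 0.09.

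The sex difference at 9 months was also set against that at time 0, a comparison added after the data were seen. CD79B was the only member to pass (1 of 6), beside 7.34% of all probe sets. Its sex difference went from -0.15 to 0.97, a shift of 1.12 (SE 0.24, adjusted p = 0.0118). Leaving out the resveratrol group, the shift was 0.78 (adjusted p = 0.167). The CD40 shifts were 0.50 (adjusted p = 0.134), 0.25 and 0.49, and those of SPIB and JCHAIN were 0.05 and 0.11.

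Of the 50 other genes of the B lineage lists, 4 were higher and 1 lower in females at 9 months. Over all probe sets 6.01% were called in either direction. The count was not tested against that share. The higher genes were BCL11A (0.58, SE 0.12, adjusted p = 0.0118), a transcription factor of B cells and plasmacytoid dendritic cells, TRAF5 (0.54, SE 0.09, adjusted p = 0.00366), IRF8 (0.44, adjusted p = 0.0386) and VAV1 (0.24, adjusted p = 0.0355). CD86, the costimulatory ligand carried by activated B cells and monocytes, was lower (-0.45, SE 0.08, adjusted p = 0.00485). Without the resveratrol group 0 of the 50 genes passed, beside 0.122% of all probe sets. Against time 0 the sex difference shifted up for 5 genes and down for 2, beside 7.34% of all probe sets called in either direction. CD40LG (0.95), CD83 (0.81), TRAF5 (0.80), IRF8 (0.61) and XBP1 (0.55), the driver of the secretory programme, shifted towards females, and BLNK (-0.87) and CD86 (-0.40) towards males. With the pig as a replicate block, 5 shifted up and 1 down. With the resveratrol group left out, 1 of the 50 shifted up and 0 down. The 7.34% does not apply to that setting, whose own share is not given here. Over the alternatives, 75 to 2064 of all probe sets were called in this contrast, and the count of 1 was not tested against any share. None of the 17 antibody secretion genes was called between the sexes at 9 months, which beside 6.01% of all probe sets is no result about that list.

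Markers of other cells also differed by sex at 9 months, and their part in the CD79B and CD40 differences was not tested. Over all probe sets 6.01% were called in either direction, and no list was tested against this share. Monocyte markers were lower in females in 5 of 15 genes and higher in 0, with mean levels per array of 9.38 to 10.09 in females and 9.70 to 10.29 in males. Erythroid markers were lower in 3 of 5 genes, with 7.84 to 8.97 in females and 8.69 to 10.23 in males. Granulocyte markers were lower in 2 of 8 genes, with 5.76 to 6.23 and 6.17 to 6.74, and T cell markers were higher in 2 of 14, with 9.74 to 10.11 and 9.61 to 9.85. Of NK and cytotoxic markers 1 of 6 was lower, of plasmacytoid dendritic markers 1 of 6 was higher, and of platelet markers 0 of 5 passed. Without the resveratrol group 0 genes of the monocyte, erythroid, granulocyte and T cell lists passed either, beside 0.122% of all probe sets. The erythroid median was then -1.54. The actin 3' less 5' signal was 1.83 ± 0.45 (SD, n = 6) in females and 2.28 ± 0.71 in males.

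CD79B, CD40 and SPIB varied together across the 9-month arrays, and no relation of JCHAIN with them passed the test. Correlations used the brightest probe set of each gene within each time, 12 relations in all, with permutation tests of 100000 resamples. Arrays were permuted without regard to sex or diet group. The p-values therefore do not set apart differences between sexes or groups that the genes share. At 9 months (n = 12) CD79B and CD40 had r = 0.976 and rho = 0.930, with a permutation p of 1.00e-05 for r, the smallest these can give (adjusted p = 1.20e-04), and 4.00e-05 for rho (adjusted p = 4.80e-04). CD79B and SPIB had r = 0.912 (permutation p = 7.00e-05, adjusted p = 4.20e-04) and rho = 0.860 (permutation p = 7.20e-04, adjusted p = 0.0029). CD40 and SPIB had r = 0.857 (permutation p = 4.10e-04, adjusted p = 0.0016) and rho = 0.874 (permutation p = 3.60e-04, adjusted p = 0.0022). Without the 2 arrays farthest from the median these were 0.976, 0.904 and 0.867.

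Within each sex at 9 months (6 arrays each) r was not tested and is a description. For CD79B and CD40, r was 0.954 in females and 0.980 in males, and for CD79B and SPIB it was 0.762 and 0.985. For CD40 and SPIB it was 0.726 and 0.965. With the means of group and sex removed, r for these 3 pairs at 9 months was 0.957, 0.862 and 0.810. JCHAIN had r = 0.01 with CD79B, -0.07 with CD40 and 0.16 with SPIB, with adjusted p from 0.817 to 0.966 in permutation tests. With the means removed these were 0.30, 0.22 and 0.50. Within females they were -0.46, -0.70 and -0.23, and within males 0.41, 0.56 and 0.40.

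At time 0 (n = 10) only CD79B and CD40 were related, with r = 0.817 (permutation p = 0.0030, adjusted p = 0.0091), rho = 0.818 (permutation p = 0.0062, adjusted p = 0.0185) and r = 0.842 without the 2 farthest arrays. CD40 and SPIB had r = 0.654 (adjusted permutation p = 0.0840), which was -0.08 without female 10 and male 25. SPIB and JCHAIN had r = -0.81 (adjusted permutation p = 0.0692) and -0.43 without the same arrays. Arrays may share labelling or scanning steps, which the labels do not give. Part of any relation could come from them, which was not tested.

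**Figure D5:**
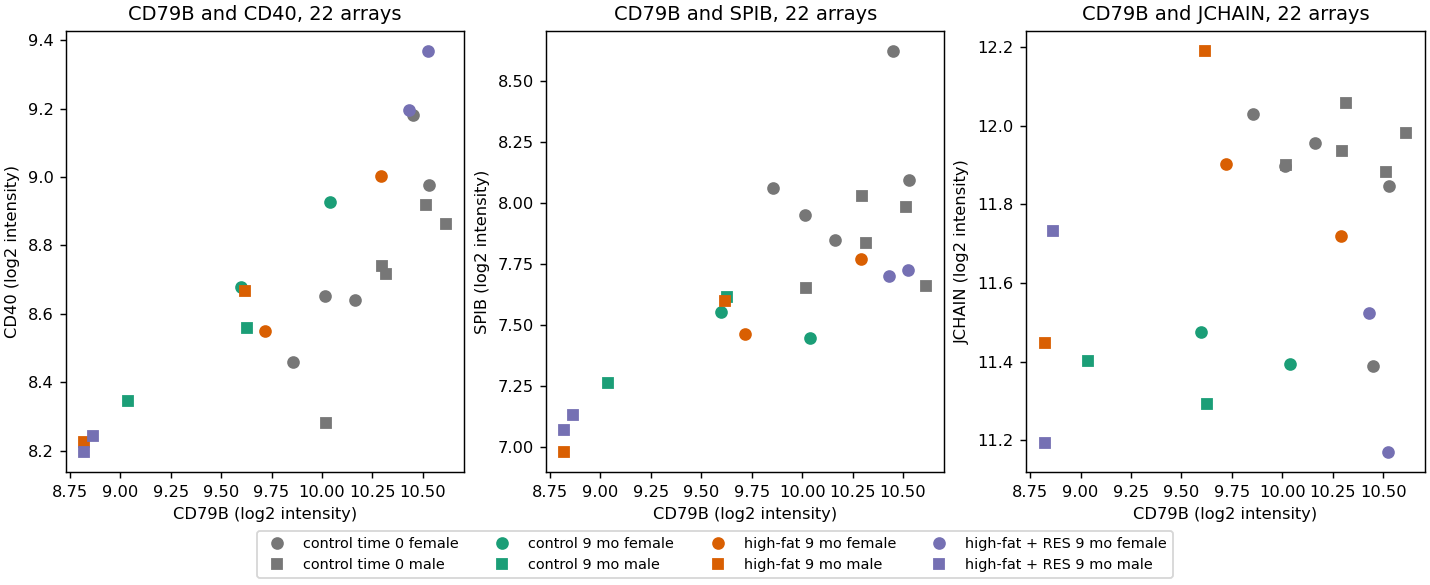
Log2 intensity of CD40, SPIB and JCHAIN (vertical axes) against CD79B (horizontal axes) on the 22 arrays, coloured by condition with circles for females and squares for males. The 9-month arrays line up in the CD40 and SPIB panels (r = 0.976 and 0.912) and scatter in the JCHAIN panel (r = 0.01).

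The 3 CD40 probe sets followed each other over the 22 arrays, with r of 0.816, 0.919 and 0.871. Over all 22 arrays, with the means of group and sex removed, each member was also ranked against 5905 other genes by Pearson's r, as a description without a test. CD79B was most like CD40 (0.903), followed by MGAT2 (0.886), a Golgi glycosyltransferase, and FLAD1 (0.869), an enzyme of flavin cofactor synthesis. CD40 was most like DTNBP1 (0.931), CD79B (0.903) and SCIMP (0.870), a membrane adaptor of antigen-presenting cells. SPIB was most like WWP2 (0.881), a ubiquitin ligase, RABEP2 (0.833) and CPN1 (0.803). JCHAIN had its highest values with RPL4 (0.768), a ribosomal protein, WIPF1 (0.766) and CITED2 (0.761).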

How the data were processed

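The authors deposited intensity values, on a linear scale, for each probe set and array of an Affymetrix porcine array. GCOS, RMA and Affymetrix Expression Console 1.1 are named per the submitters' processing notes. No raw scans were analysed here. Log2 was taken after a floor of 1, 124 control probe sets were set aside, and probe sets above 5 on the log2 scale in at least 2 arrays were kept (17240 of 23999, 71.8%). Names came from the platform annotation. Of the 23999 probe sets, 10069 had 1 symbol, 198 several and 13732 none.

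Groups came from the labels. Differences were tested with limma 3.58.1 (R 4.3.3, statmod 1.5.0; lmFit and eBayes, two-sided) on all 22 arrays, with group and sex as additive terms for time and diet, and with 8 means of group and sex for sex differences and their changes. Benjamini-Hochberg adjustment ran over all 17240 probe sets, at 0.05. The test was checked on simulated data. Correlations used scipy 1.17.1 and figures matplotlib 3.10.9. P-values measure the spread between pigs, and the number of arrays limits the precision.

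Pigs 8 and 25 were measured at both times and so pair those arrays. Their deviations from the group means correlated at -0.06 and 0.20, and the fitted correlation within pig was -0.02. The spike-in sets were cut from 24 poly-A control probe sets, separately within each time, and are not labelled batches.

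All 6 member probe sets were described in every comparison. From 5 B lineage lists, with the brightest probe set per gene, genes that passed were named (up to 10 per direction) along with the 3 of smallest p, and for each member the 3 most similar genes. Members and lists were chosen with earlier results of these data known. Alternatives changed the filter, offset, normalization, variance model, blocks and arrays.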

Additional observations from a re-analysis of the deposited data

Results flagged for a closer look

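In the time 0 control group, female 10 had the highest SPIB value, 8.62, with the next array at 8.09 and the lowest at 7.65, a gap larger than Dixon's 95% limit for 10 arrays. The same array had the lowest JCHAIN value, 11.39, with the next at 11.85, beyond the limit both among all 10 time 0 arrays and among the 5 females. Of 48 groups examined in this way, 3 passed the limit, and chance alone passes about 1 in 20. The sex difference of CD79B shifted by 1.12 on the log2 scale between time 0 and 9 months (limma, adjusted p = 0.0118), a test of the difference itself, and by 0.78 without the resveratrol group (adjusted p = 0.167).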

How the results depend on the processing

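Alternatives were computed for every member in every comparison, and no called difference changed sign in any of them. The SPIB and JCHAIN falls over time passed in all 34, with differences of -0.61 to -0.44 and -0.55 to -0.45. CD79B over time was -0.65 with quantile normalization (adjusted p = 0.0577) and -0.65 with the spike-in set as a random block (adjusted p = 0.0855), and -0.80 to -0.59 when single arrays were left out. In the sex comparison at 9 months, leaving out single arrays gave 1 to 5 called members, a call for CD79B each time, and CD40 differences of 0.51 to 0.66, 0.40 to 0.57 and 0.50 to 0.74. Leaving out each 9-month diet group in turn was added after seeing the data. Without the resveratrol group, 0 members passed, with 0.64 for CD79B and 0.34, 0.35 and 0.41 for CD40, and the shift of the sex difference from time 0 passed for 0 members (CD79B 0.78). Without the control group, Ssc_11752_1_A1_s_at was 0.46 (adjusted p = 0.0608). SPIB between the sexes at 9 months passed in 1 setting, without high-fat male 26 (0.44, adjusted p = 0.0458). With the pig as a replicate block, CD79B, SPIB and JCHAIN over time were -0.72, -0.52 and -0.50, and no member call changed. Among the other genes of the B lineage lists the block gave 13 higher and 10 lower over time (15 and 10 as reported). In the CD40 pathway it gave 4 higher (6 as reported). For the sex difference from time 0 it gave 5 shifts up and 1 down (5 and 2 as reported). Over quantile normalization, median centring and the spike-in block, these genes over time gave 13 to 14 higher and 9 to 10 lower of 50. Counts over all probe sets ran from 4640 to 7008 for time (6026 as reported), 0 to 68 for high-fat chow, 25 to 395 for sex at time 0 and 21 to 2245 for sex at 9 months (1036 as reported). Diet groups of 4 arrays and sex groups of 2 per diet limit all of these comparisons. Time cannot be told apart from the spike-in sets, which were cut within each time.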
